A study of Danio rerio with 14 samples.

Results

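Of 98262 genomic regions that carried an H3K27ac peak in zebrafish T-cell tumors or normal thymus, 523 (0.532%) had a peak in each of the 3 thymus samples and in exactly 1 of 4 tumors. In 145 of these regions no base was covered in all 3 thymus samples, so the thymus peaks did not always coincide. Such regions are called kept in the tumor that has a peak in them, whether or not that peak lies on shared thymus bases. To find them, the peak lists of all 7 samples were merged wherever peaks overlapped by at least 1 bp, on every sequence of the GRCz11 assembly, and a region counted as called in a sample when any peak of that sample lay in it. The calls that chose the regions are the readout itself, so the calls, the covered lengths and everything computed from them are given as a description, without tests between tumors and thymus.

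The tumors developed in zebrafish that carried human IRF4 and the red fluorescent marker mCherry, both under the zebrafish lck promoter, and they are named tumors 1, 2, 3 and 4. Normal thymus was taken from fish with mCherry alone under the same promoter, at 3 months, and its samples are named thymus 2, 3 and 5. The lck promoter is active in T cells and their precursors, and the paper reports its transgenes in normal B cells too. For ChIP-seq, mCherry-positive cells were sorted, so both groups carry the reporter. They differ by IRF4, by disease and by source, as tumor cells are set against thymus. The study describes the tumors as coming from 4 lck:IRF4 fish, the labels give neither their age nor their p53 genotype, and the sources differ on whether thymus samples were pooled from several fish.

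H3K27ac is acetylation of lysine on the tail of histone H3, placed mainly by the p300 and CBP acetyltransferases at active promoters and enhancers. A stretch that loses the mark is usually less active, while one that keeps it remains accessible to transcription factors. In the thymus, T-cell precursors move from the double-negative through the double-positive to the single-positive stages, and their enhancers change at each step. By single-cell RNA-seq, the paper reports mostly double-negative cells in such tumors, whereas double-positive cells were the largest population in its control. The groups may thus differ in cell stage as well, which was not tested here. In bulk samples, a weaker mark per cell and fewer marked cells cannot be told apart.

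The 7 lists held 26449, 32781, 30199 and 19809 peaks in tumors 1, 2, 3 and 4, against 31647, 40335 and 38814 in thymus 2, 3 and 5. The narrowest peak measured 127 bp in tumor 2, 117 bp in tumor 3 and 72 bp in tumor 4, against 50, 53 and 54 bp in the thymus samples, and that of tumor 1 was 1 bp wider than that of tumor 2. Among tumors, peaks under 117 bp are thus found in the list of tumor 4 alone. All 34 peaks of at least 10 kb belonged to tumor 2. The peak names of thymus 2 and thymus 5 carry the word batch2 and those of the other lists do not, and as no tumor carries it, batch and tissue cannot be told apart in these 2 samples. The lists hold no gene names and no read counts, so neither the cell type markers nor the depth could be examined from them.

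The first question was how often a thymus region was kept in 1 tumor, and in which. Of the 11118 regions called in all 3 thymus samples, 7983 (71.8%) were called in all 4 tumors, 1386 (12.5%) in 3, 604 (5.43%) in 2, 523 (4.7%) in 1 and 622 (5.59%) in none. Retention in a single tumor was thus the least frequent of the 5 outcomes by count, close to retention in 2 tumors and to complete loss. The total depended on the samples in the comparison: with the rule applied to the rest, it was 814 without tumor 1, 814 without tumor 3, 1190 without thymus 2 and 786 without thymus 3.

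Tumor 3 alone kept 174 of the 523 regions (33.3%), tumor 2 alone kept 161 (30.8%), tumor 1 alone kept 149 (28.5%) and tumor 4 alone kept 39 (7.46%). Of all 11118 thymus regions these are 1.57%, 1.45%, 1.34% and 0.351%. The small share of tumor 4 stood beside the shortest peak list, of 19809 peaks. With each list cut to its 19809 widest peaks, tumors 1, 2, 3 and 4 alone kept 114, 82, 88 and 43 of 327 regions. The part of list length in the share of tumor 4 was not tested. Taken against the thymus regions that each tumor shared at all, single-tumor retention made up 1.75% of 9932 regions in tumor 3, 1.72% of 9370 in tumor 2, 1.51% of 9856 in tumor 1 and 0.45% of 8663 in tumor 4. In the opposite pattern, 839 regions were missed by tumor 4 alone, 363 by tumor 2 alone, 106 by tumor 1 alone and 78 by tumor 3 alone. Tumors 1 and 3 therefore kept many regions alone and rarely lost one alone, and tumor 4 did the reverse. Among the 604 regions kept in exactly 2 tumors, tumors 1 and 3 shared 333, against 26 to 98 for each other pair. Leaving out either of these tumors therefore moved many regions to the other, with 502 kept by tumor 3 alone without tumor 1 and 477 by tumor 1 alone without tumor 3. Without these samples tumor 2 alone kept 242 and 264 regions and tumor 4 alone 70 and 73. Without tumor 2, tumors 1, 3 and 4 alone kept 230, 273 and 66. Without thymus 2, tumors 1, 2, 3 and 4 alone kept 363, 342, 397 and 88, and without thymus 3, tumors 2 and 3 alone kept 250 and 281. Tumor 4 kept the fewest regions alone in each of these comparisons that included it. The near-even split among tumors 1, 2 and 3 depended on how a call was made. With a call made only where peaks filled 50% or more of the region, tumor 3 alone kept 248 of 391 regions and tumors 1, 2 and 4 kept 67, 62 and 14.

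**Figure D1:**
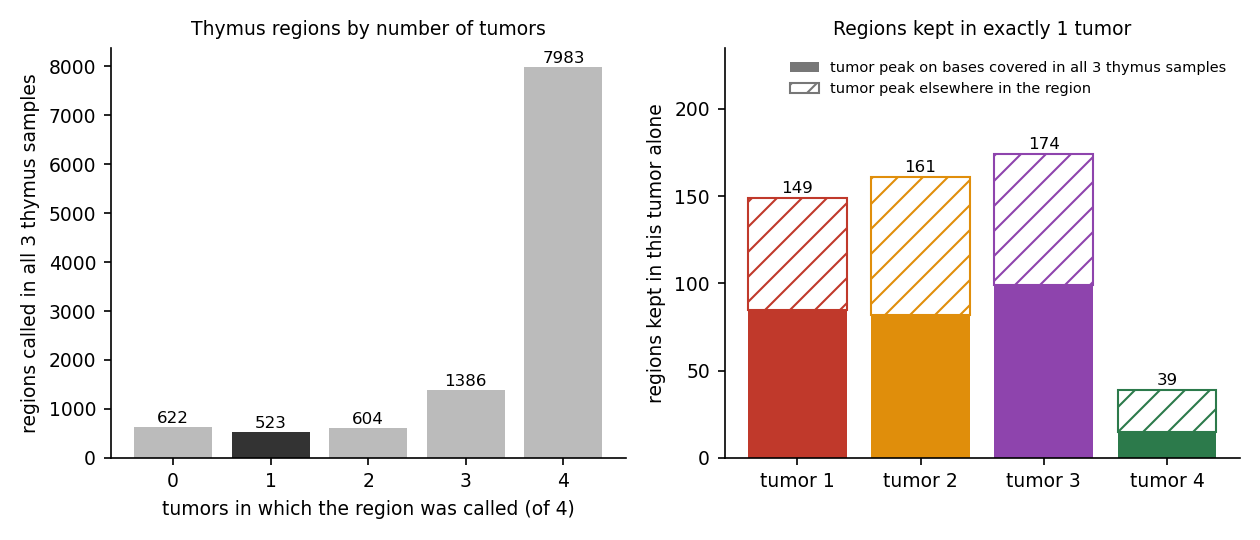
Left, number of regions called in all 3 thymus samples by the number of tumors in which they were also called, with the 523 regions kept in exactly 1 tumor in the dark bar. Right, the same 523 regions by the tumor that kept them, where the filled part marks regions whose tumor peak shares bases covered in all 3 thymus samples (85, 82, 99 and 15 in tumors 1 to 4) and the hatched part the remainder.

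A merged region can be held together by a chain of overlaps, so the position of the tumor peak inside it was examined. In 378 of the 523 regions (72.3%) at least 1 base was covered in all 3 thymus samples, against 92.5% of the regions called in all 4 tumors and 75.1% of those called in none. The tumor peak lay on such shared bases in 281 regions (53.7%). By tumor, this held for 57.0%, 50.9%, 56.9% and 38.5% of the regions kept by tumors 1, 2, 3 and 4, whereas 84.2% to 86.6% of all thymus regions shared by a tumor had its peak on these bases. In 97 regions the tumor peak stood beside the shared thymus bases, and 145 regions had none. The tumor peak overlapped peaks of all 3 thymus samples in 375 regions, of 2 in 116 and of 1 in 32.

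The thymus marks at these regions were short. Thymus 2, 3 and 5 covered a median of 261, 413 and 507 bp per region, against 532, 1017 and 1172 bp at regions called in all 4 tumors and 204, 324 and 383.5 bp at regions lost in every tumor. Regions kept in 1 tumor thus lay between these classes and nearer to the lost regions. Their thymus lengths were not even among the samples, as thymus 5 was the longest of the 3 in 276 regions, thymus 3 in 157 and thymus 2 in 90.

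The covered length in the tumor that kept the region had a median of 360 bp in tumor 1 (at most 2477), against 227, 495 and 574 bp in thymus 2, 3 and 5 at the same 149 regions. Tumor 2 covered a median of 439 bp (127 to 88573), against 315, 431 and 560 bp at its 161 regions. Tumor 3 covered 299 bp (117 to 1642), against 270, 333.5 and 455.5 bp at its 174 regions. Tumors 1, 2 and 3 lay between the shortest and the longest thymus median at their own regions. Tumor 4 covered a median of 166 bp (72 to 617), against 179, 287 and 453 bp at its 39 regions, below every thymus sample.

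**Figure D2:**
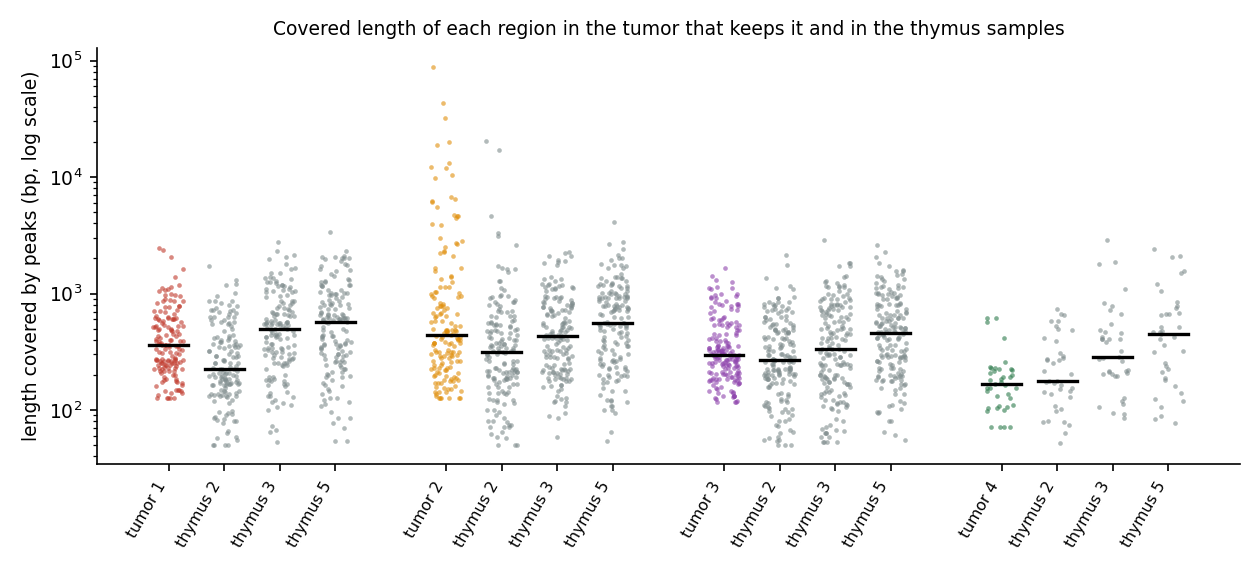
Length covered by peaks (bp, log axis) in each of the 523 regions, in the tumor that kept it (colored) and in thymus 2, 3 and 5 (gray), grouped by that tumor. Each point is a region and each bar a median, and only tumor 2 reaches lengths above 5 kb among the tumors.

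Expressed as the log2 ratio of the tumor length to the mean of the thymus lengths, the median was −0.22 over the 523 regions, −0.23 in tumor 1, −0.13 in tumor 2, −0.10 in tumor 3 and −0.80 in tumor 4. Over all thymus regions shared by each tumor, the same ratio had medians of −0.13 in tumor 1, −0.18 in tumor 2, 0.10 in tumor 3 and −0.61 in tumor 4. The ratio depended on which thymus sample it was taken against. It was 0.52 against thymus 2, −0.15 against thymus 3 and −0.48 against thymus 5 over all members, so that regions kept in 1 tumor were mostly longer there than in thymus 2 and mostly shorter than in thymus 5. Tumor 4 was the exception, with medians of −0.43, −0.93 and −1.04 against thymus 2, 3 and 5. With the regions chosen anew from the remaining samples, the median over all regions turned to 0.019 without thymus 3 and 0.046 without thymus 5. That of tumor 1 turned to 0.052 without thymus 5, that of tumor 2 to 0.0078, 0.90 and 0.35 without thymus 2, 3 and 5, and that of tumor 3 to 0.056 without thymus 2 and 0.032 without thymus 5. Only in tumor 4 did the sign hold throughout these 3 omissions.

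In 261 of the 523 regions the tumor length fell between the thymus lengths or equalled one of them, in 133 it exceeded all 3, and in 129 it was below all 3. Tumor 2 was longer than each thymus sample in 61 of its regions (37.9%), against 15.9% of all thymus regions that it shared. Tumor 1 was longer in 32 (21.5%, against 17.3%), tumor 3 in 37 (21.3%, against 25.8%) and tumor 4 in 3 (7.69%, against 6.48%). Tumor 2 thus lay farthest from its own background in this direction. A long tumor peak can itself join separate thymus peaks into a region called in all 3 thymus samples. In 47 of the 161 regions kept by tumor 2 no base was covered in all 3, so nothing is read from this difference. The tumor was shorter than each thymus sample in 34 regions of tumor 1 (22.8%, against 24.1%), 37 of tumor 2 (23.0%, against 27.6%), 42 of tumor 3 (24.1%, against 15.7%) and 16 of tumor 4 (41.0%, against 44.8%).

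The spread within tumor 2 was the widest, with a middle range of −1.05 to 1.43 on the log2 scale between the lower and the upper quartile. In 21 of its regions the tumor covered over 8 times the mean thymus length, which no region kept by another tumor did (highest ratio 6.46). These 21 lay on 13 chromosomes, 8 of them had bases shared by all 3 thymus samples, and together they held 236 of the 402 kb that tumor 2 covered in its regions. The other 140 regions had a median log2 ratio of −0.32. All 15 regions longer than 5 kb were kept by tumor 2, and the longest region kept elsewhere measured 3412 bp.

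**Figure D3:**
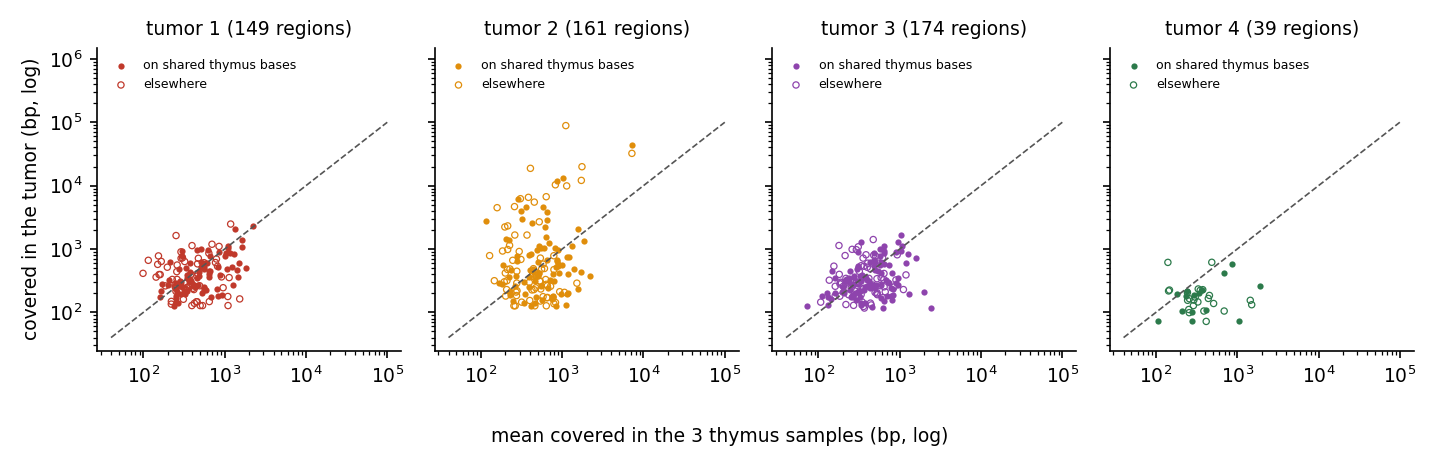
Length covered in the tumor that kept the region (vertical, bp, log axis) against the mean length in the 3 thymus samples (horizontal, bp, log axis), with a panel for each tumor and a point for each region. Filled points have the tumor peak on bases covered in all 3 thymus samples. Open points have it elsewhere or are regions without such bases, and the dashed line marks equal length. Tumor 2 has a group of points far above the line, and most points of tumor 4 lie below it.

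The longest region, at chr25:26302922-26391494, was a single tumor 2 peak of 88573 bp. Thymus 2 had 13 peaks with 2592 bp in it, thymus 3 had 1 peak of 177 bp and thymus 5 had 3 peaks with 555 bp, while tumors 1, 3 and 4 had none. No base of this region was shared by the 3 thymus samples, so its membership rests on scattered short thymus peaks under a broad tumor 2 stretch. It belonged to a cluster of 3 regions at chr25:26265585-26391494, all kept by tumor 2, in which tumor 2 covered 120 of 126 kb. The first of these, at chr25:26265585-26285472, had 19888 bp in tumor 2 against 3309, 201 and 1743 bp in thymus 2, 3 and 5.

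**Figure D4:**
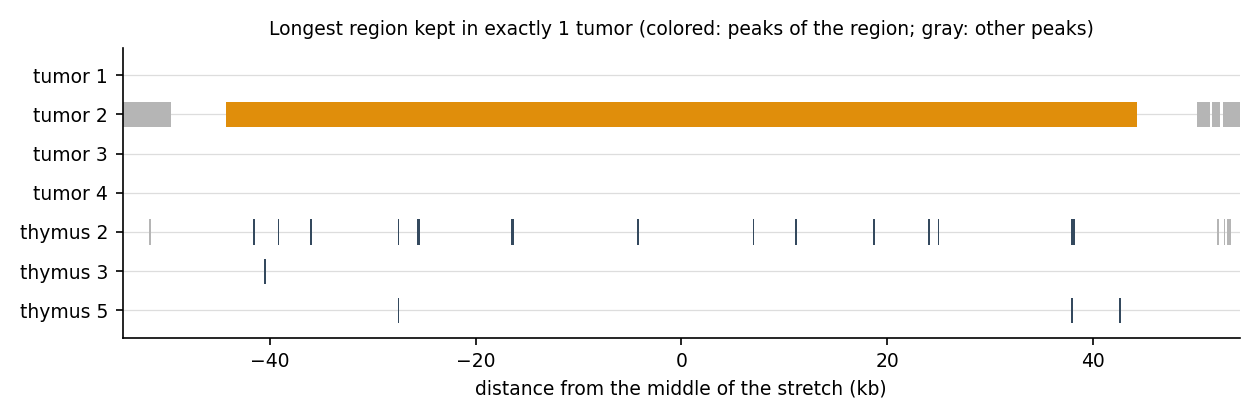
Peaks of each sample around the longest region, drawn to scale by distance from its middle (kb), with tumors above thymus samples. Colored bars lie in the region and gray bars outside it; a single bar of 88573 bp fills the tumor 2 row, thymus 2, 3 and 5 show 13, 1 and 3 short peaks, and the rows of tumors 1, 3 and 4 are empty.

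Some broad tumor 2 regions were also long in thymus 2. At chr12:14331386-14374870, tumor 2 covered 43485 bp, against 17097 bp in thymus 2, 561 bp in thymus 3 and 4133 bp in thymus 5. The largest cluster kept by tumor 2 alone, at chr10:12060099-12126882, held 4 regions with 2726, 4668, 3860 and 32308 bp in tumor 2. In thymus 2 these had 116, 180, 1518 and 20293 bp, whereas thymus 3 covered at most 399 bp and thymus 5 at most 1109 bp in any of them. Thymus 2 had 38 peaks over the cluster, tumor 2 had 12, and tumors 1, 3 and 4 had none.

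Among the tumor 2 regions on chromosomes 1 to 25 where its peak lay on shared thymus bases, the highest ratios were at the first region of the chr10 cluster, with 2726 bp against 116, 109 and 119 bp (log2 ratio 4.57), and at chr10:22870406-22876561, in a large domain labelled by the study with and3, an actinodin gene of the fin skeleton, with 6156 bp against 211, 183 and 455 bp (4.44). The lowest were at chr11:10499407-10501316, with 132 bp against 454, 1829 and 1061 bp (−3.08), and at chr23:22901860-22904655, with 231 bp against 839, 1195 and 2661 bp (−2.76). At the chr11 region a tumor 4 peak ended 81 bp away, and peaks of tumors 1 and 3 lay 745 and 656 bp away. All of the other tumors thus had a peak within 1 kb of it. At the chr23 region the nearest peak of another tumor was over 20 kb away.

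Gene names were attached only through the study's own nearest-gene labels for differential sites and its labels for large enhancer domains, of which a part was at hand. A site label overlapped 73 of the 523 regions and a domain label 80, and 146 had at least one, naming 119 genes. The labelled sites were selected in the study by a differential test on these same samples, so the direction of the labelled regions is not independent evidence. Genes of the T-cell list found this way were id3, cxcr4a, runx3, themis and ets1. The labels at hand put no member at the other genes of that list, such as lck, gata3, tcf7 and itk. The share of such labels over all thymus regions was not computed, so no enrichment is read from these counts.

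The id3 gene, which encodes an inhibitor of E-protein transcription factors needed for T-cell maturation in mice, had 3 such regions on chromosome 17. The one at chr17:27271891-27273393, within 1 kb of the labelled gene start, was kept by tumor 4, which covered 72 bp against 579, 1096 and 1503 bp in thymus 2, 3 and 5 (log2 ratio −3.88). That tumor 4 peak has the smallest width its list holds, and it lay wholly on bases covered in all 3 thymus samples. The regions at chr17:27327457-27328461 and chr17:27331085-27332108 were kept by tumor 2. It covered 127 bp against 121, 354 and 909 bp at the first, and 158 bp against 97, 671 and 945 bp at the second. The 127-bp peak is likewise the narrowest width of the tumor 2 list.

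Each id3 region was thus kept by a short tumor peak, and not all in the same tumor. Over the 80.2 kb around them, tumor 1 had 0 peaks, tumor 2 had 6, tumor 3 had 1 and tumor 4 had 2, against 18, 16 and 25 in thymus 2, 3 and 5. Between the kept regions lay 3 regions called in every thymus sample and no tumor. One of them, at chr17:27292994-27294527, had 820, 1182 and 886 bp in thymus 2, 3 and 5.

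**Figure D5:**
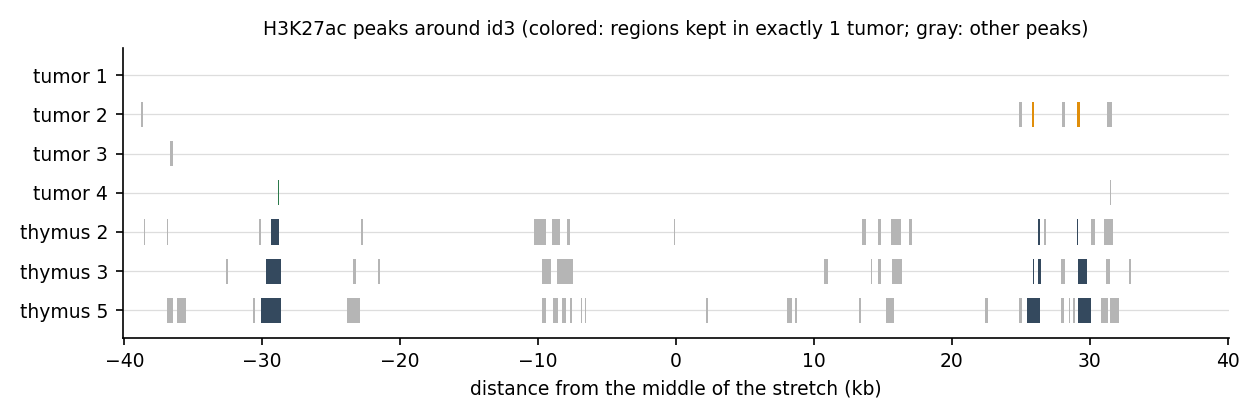
H3K27ac peaks of each sample over the 80.2 kb around the regions labelled id3, drawn to scale by distance from the middle of the stretch (kb), with tumors above thymus samples. Colored bars belong to the 3 regions kept in exactly 1 tumor and gray bars to other regions; the tumor 1 row is empty, the tumor 4 bar at the left is 72 bp wide and the 2 colored tumor 2 bars at the right are 127 and 158 bp.

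The cxcr4a gene encodes a receptor for the chemokine Cxcl12, which guides T-cell precursors. Its region at chr6:12920811-12923924, within 1 kb of the labelled start, had 117 bp in tumor 3 against 1769, 2900 and 2627 bp in thymus 2, 3 and 5. This log2 ratio of −4.38 was the lowest of all 523 regions, and 117 bp is the narrowest width of the tumor 3 list. The nearest peaks of tumors 1, 2 and 4 were 20709, 32056 and 43428 bp away. In 18 of the 523 regions (3.44%) the tumor covered exactly the narrowest width of its list, 5 of them in tumor 1, 6 in tumor 2, 3 in tumor 3 and 4 in tumor 4. These are 3.36%, 3.73%, 1.72% and 10.3% of the regions kept by tumors 1, 2, 3 and 4. Of all peaks in their lists, 2.22%, 5.17%, 3.75% and 2.91% had the narrowest width. Tumors 2 and 3 thus lay below their own lists, and no general trait of the kept regions is read from this count.

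The other T-cell genes were named through large domains, where more tumor peaks stood close by. In the domain labelled runx3, a transcription factor of the CD8 lineage in mice, 2 regions were kept by tumor 1, which covered 572 bp against 58, 199 and 193 bp at chr13:45157515-45158096, and 1131 bp against 166, 252 and 772 bp at chr13:45158424-45159654. Both were longer in tumor 1 than in any thymus sample, but neither had a base covered in all 3 thymus samples. The other tumors had peaks 1709 to 2650 bp away. In the domain labelled themis, a thymocyte selection adaptor, tumor 4 covered 182 bp at chr20:1460831-1461424, against 153, 469 and 84 bp, and tumor 1 had a peak 280 bp from it. In the domain labelled ets1, a lymphocyte transcription factor, tumor 4 covered 72 bp at chr18:48280802-48281254, against 99, 287 and 453 bp. That is the narrowest width of the tumor 4 list, and tumors 1, 2 and 3 had peaks 1527, 1708 and 1197 bp away. A second ets1 region, at chr18:48289093-48290912, was kept by tumor 3 with 229 bp against 709, 889 and 1734 bp.

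Further labelled genes, chosen here after their values were seen, fall into several roles. Among cytokine and growth factor receptors, il2rb, a subunit of the interleukin-2 receptor, had 277 bp in tumor 2 against 852, 833 and 230 bp in thymus 2, 3 and 5 at chr3:25182583-25183816. The region labelled tgfbr1b, a TGF-beta receptor, had 390 bp in tumor 3 against 634, 1386 and 1563 bp at chr24:135757-137319. Both were shorter in the tumor than in at least 2 thymus samples. Their labels come from sites that the study selected by its differential test, so this direction is not independent evidence.

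Transcription factor genes made up a second group. The region of irf1b, an interferon regulatory factor, had 488 bp in tumor 2 against 274, 1923 and 2034 bp at chr21:45587334-45589457. The region of rel, an NF-kappaB subunit, had 182 bp in tumor 3 against 922, 198 and 962 bp at chr13:25821504-25822798. At mych, a myc homolog, tumor 1 covered 522 bp against 784, 1169 and 1762 bp at chr6:50521167-50522928, all of it on shared thymus bases. These 3 regions, from 3 keeping tumors, were shorter in the tumor than in at least 2 thymus samples, and those of rel and mych were shorter than in each. They too were named through the differential sites, so nothing is read from their shared direction. Regions of other transcription factor genes, named through large domains, differed in direction. At a klf13 region tumor 1 covered 245 bp against 169, 193 and 660 bp (log2 ratio −0.48), above thymus 2 and 3 and below thymus 5. At hivep2a, tumor 3 covered 446 bp against 258, 576 and 803 bp in its region (−0.29). Tumor 1 covered 193 bp against 524, 163 and 297 bp in another hivep2a region (−0.77). Regions of sox12 and irf2bp2a were longer in the tumor than in each thymus sample. At sox12, a SoxC factor, tumor 1 covered 439 bp against 129, 295 and 349 bp at chr11:24197841-24198388, and at irf2bp2a, an IRF2-binding corepressor, it covered 269 bp against 136, 262 and 198 bp at chr13:49472645-49473019.

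The ETS family gene elf1 had 2 regions kept by tumor 2. It covered 1132 bp against 480, 1849 and 1642 bp at chr14:40813851-40816127, and 493 bp against 378, 720 and 718 bp at chr14:40809852-40810976. Both exceeded thymus 2 and were below thymus 3 and 5, and every other tumor had a peak within 1787 bp of each. At mef2ca, a MADS-box factor, tumor 1 covered 178 bp against 163, 1331 and 1786 bp at chr10:43618708-43620501, with the nearest tumor 3 peak 5849 bp away. In the domain labelled bach2b, a repressor in lymphocytes, tumor 1 covered 871 bp against 185, 945 and 2011 bp at chr20:24098355-24100365.

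Genes of chromatin regulators formed another group. At brpf1, a subunit of a histone acetyltransferase complex, the tumor 1 peak had the narrowest width of its list, against 722, 1394 and 1184 bp at chr8:54159486-54160879. At brd2b, which encodes a BET protein that binds acetylated histones, tumor 3 covered 267 bp against 721, 966 and 1166 bp at chr16:48790628-48791793. Both were below every thymus sample, and both were named through the differential sites, so this direction is not independent evidence. A second brpf1 region kept by tumor 1, at chr8:54156683-54157268, had 331 bp against 97, 560 and 122 bp (log2 ratio 0.35). At tet3, a 5-methylcytosine dioxygenase, tumor 1 covered 533 bp against 427, 1035 and 988 bp at chr5:14325847-14327117. This region was the first of the largest cluster kept by tumor 1 alone, whose other members had 622 bp against 191, 367 and 77 bp at chr5:14370252-14370873 and 637 bp against 63, 192 and 243 bp at chr5:14406163-14406799. Over the span of this cluster tumor 1 had 8 peaks. Tumors 2, 3 and 4 had 2, 3 and 1 there, outside the kept regions.

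For each tumor, 3 regions were taken by the median of their length percentiles in the list of that tumor and the 3 thymus lists. As 3 of the 4 lists are thymus lists, this choice favors regions long in the thymus, and nothing is read from the direction of their ratios. For tumor 1 they were at chr13:43091824-43095235, with 2348 bp against 573, 2755 and 3350 bp in thymus 2, 3 and 5, at chr2:35490907-35493077, with 499 bp against 1306, 2141 and 2027 bp, and at chr22:10423223-10425409, labelled nol8, with 1397 bp against 1216, 1638 and 2078 bp. The nol8 region had 1059 bp of tumor peak on shared thymus bases. For tumor 2, besides the broad regions on chromosomes 12 and 25, the mitochondrial ribosomal protein gene mrps15 had 378 bp against 1643, 2244 and 2761 bp at chr16:36105608-36108480.

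For tumor 3 they were cxcr4a, a region at chr6:8297006-8299273 with 713 bp against 784, 1716 and 2268 bp, and one labelled mkln1, which encodes the kelch protein muskelin. The mkln1 region at chr4:11689371-11691702 had 208 bp in tumor 3 against 2153, 1822 and 2044 bp (log2 ratio −3.27), all on shared thymus bases. A second mkln1 region, at chr4:11652271-11653973, was kept by tumor 2 with 199 bp against 730, 1340 and 1483 bp. As at id3, neighbouring regions with the same label were kept by different tumors. For tumor 4 they were the id3 region, chr5:19742032-19744073 with 132 bp against 673, 1804 and 2042 bp (−3.51), and chr8:28622486-28625568 with 259 bp against 737, 2903 and 2114 bp (−2.89). At the chr8 region each other tumor had a peak 1098 to 1157 bp away.

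Ratios were also ranked among regions on chromosomes 1 to 25 whose tumor peak lay on shared thymus bases. There tumor 1 reached 943 bp against 195, 338 and 370 bp at chr21:9955579-9956521 (1.65) and only 186 bp against 597, 1039 and 1183 bp at chr2:32760878-32762130, labelled bfsp2, a lens filament gene (−2.34). Its next lowest, at chr20:37575835-37577822, had 268 bp against 324, 1506 and 1988 bp (−2.25). Tumor 3 had 1267 bp against 73, 762 and 181 bp at chr17:48548992-48550258 (1.90) and 912 bp against 50, 375 and 494 bp at chr9:53022992-53023903 (1.57). In each of the 3 high regions the tumor covered more than any thymus sample. The highest value of tumor 4 among such regions was at chr17:37790821-37791227, in a domain labelled zfp36l1a, an mRNA decay factor, with 193 bp against 165, 263 and 119 bp (0.08). Without this limit the log2 ratios ran from −3.23 to 2.69 in tumor 1, −4.38 to 2.66 in tumor 3 and −3.88 to 2.13 in tumor 4. The top tumor 4 value belonged to chr7:5310861-5311475, with 615 bp against 154, 86 and 181 bp.

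In the list of tumor 1, which also holds the enrichment of each peak, the 161 peaks in regions kept by tumor 1 alone had a median fold enrichment of 3.01 (2.25 to 7.92) and a median −log10 p of 4.85 (3.13 to 21.4). Tumor 1 peaks in thymus regions kept by 2, 3 and 4 tumors had median folds of 3.22, 3.56 and 4.42, and tumor 1 peaks in regions called in no other sample had 2.88. The enrichment of peaks in thymus regions was thus higher the more tumors shared the region, and the singly kept ones lay close to the peaks seen nowhere else.

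Where the other tumors lacked a region, they often had a peak at some distance. The nearest peak lay at a median of 9.99 kb in tumor 1, 9.37 kb in tumor 2, 7.28 kb in tumor 3 and 15.2 kb in tumor 4, each over the members that the tumor lacked. A peak within 1 kb was found for 16.3%, 12.7%, 15.2% and 9.30% of them in tumors 1, 2, 3 and 4, against 26.4% to 27.8% in tumors 1, 2 and 3 and 17.7% in tumor 4 of the 622 regions lost in every tumor. In 410 regions (78.4%) none of the 3 other tumors had a peak within 1 kb, and in 37 (7.07%) all 3 had one. At 10 kb, 191 regions (36.5%) had no peak of another tumor and 190 (36.3%) had peaks of all 3. Stretches bare in the other tumors and stretches that all of them marked nearby were thus about equally frequent at 10 kb. At 1 kb bare stretches were far more frequent, so the balance depended on the distance chosen.

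By position, 459 of the 523 regions (87.8%) lay on chromosomes 1 to 25, 57 on alternate locus sequences and 7 on unplaced scaffolds. Members made up 4.17% of the thymus regions on alternate sequences and 4.83% of those on unplaced scaffolds, close to the 4.7% over all sequences. The share on chromosomes 1 to 25 was 83.2%, 94.4%, 85.6% and 87.2% in tumors 1, 2, 3 and 4. Of all peaks in the lists of these tumors, 83.4%, 86.3%, 81.9% and 84.6% lay there. Tumor 3 kept 25 regions on alternate sequences, tumor 1 kept 19, tumor 2 kept 9 and tumor 4 kept 4. Chromosome 17 had the largest share, with 29 of 362 thymus regions (8.01%), of which tumor 1 kept 11, tumor 2 kept 3, tumor 3 kept 9 and tumor 4 kept 6. The lowest shares were on chromosome 19 (10 of 411, 2.43%) and chromosome 5 (13 of 521, 2.50%).

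Members were linked into clusters where the gap between them was at most 50 kb. In this way 144 of the 523 regions (27.5%) fell into 62 clusters of at most 5 regions, against 37.5% of the regions lost in every tumor, 16.6% and 19.6% of those kept in 2 and 3 tumors, and 65.2% of those kept in all 4, of which there are far more to be linked. In 35 of the 62 clusters 1 tumor kept every region. The nearest member was kept by the same tumor for 95 of the 144 (66.0%), namely 24 of 43 regions of tumor 1, 41 of 47 of tumor 2, 26 of 41 of tumor 3 and 4 of 13 of tumor 4. Tumor 2 regions with a neighbour within 50 kb were thus mostly next to each other (87.2%), while tumor 2 kept 30.8% of all members. Same-tumor neighbours also exceeded the share of members in tumor 1 (55.8% against 28.5%), tumor 3 (63.4% against 33.3%) and tumor 4 (30.8% against 7.46%). The broad stretches of tumor 2 on chromosomes 10 and 25 are among its neighbouring regions, and each counts as several regions. On chromosome 25 the gaps between such regions were 203 and 5318 bp.

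The largest cluster, at chr17:39908354-39965509, had 5 regions over 57.2 kb, of which tumor 4 kept 4 and tumor 3 kept 1. Tumor 4 covered 234, 191, 200 and 221 bp in its regions, against 120 to 650 bp in the thymus samples. Over the cluster tumor 4 had 4 peaks, tumor 3 had 9 and tumors 1 and 2 had none, against 46, 12 and 26 peaks in thymus 2, 3 and 5. The largest cluster of tumor 3 alone, at chr2:19434558-19451102, had 4 regions with 177, 202, 620 and 374 bp in tumor 3, against 460, 461, 798 and 406 bp in thymus 2. Thymus 3 covered 122 to 197 bp and thymus 5 covered 190 to 292 bp in them, and no other tumor had a peak in the cluster. In both clusters thymus 2 had the most peaks of all samples. A further cluster of 4, at chr7:28678476-28761548, was mixed, with 2 regions kept by tumor 2, 1 by tumor 1 and 1 by tumor 3.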

How the data were processed

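The authors, per the methods, mapped single-end 50 bp reads to GRCz11 (Bowtie2) and dropped duplicates (samtools). Broad peaks came from MACS2 2.1.1.2016030 at p of 1e-03, run once for each library with its whole cell lysate as background. The deposited lists give peak positions. That of tumor 1 also holds a score, the fold enrichment (a ratio) and the −log10 of p and q values, as the authors' caller wrote them; the score and the q-value were not used. Read totals are not part of the deposited lists, and depth per sample was not examined. Inputs were not analysed here. Columns taken from other series numbered 0.

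Groups came from the labels. Peaks were merged within and across lists, and covered length is the number of bases under peaks of a list. The merging and counting steps were tested on simulated lists. The members, the T-cell list and all rules were chosen with earlier results of these data known. Regions named were, for each keeping tumor on chromosomes 1 to 25, the 3 whose percentile of length within a list had the highest median, the 2 highest and 2 lowest ratios among those with the tumor peak on shared thymus bases, the largest cluster at 50 kb, and regions labelled with T-cell genes. Of the 119 labelled genes, 107 matched a symbol in the reference tables. No test between groups was run, and Dixon's limit was used only to find tumors that stand apart. The alternatives are given in the closing section. Python 3.11.15, NumPy 2.4.6, pandas 2.3.3, SciPy 1.17.1 and matplotlib 3.10.9 were used.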

Additional observations from a re-analysis of the deposited data

Results flagged for a closer look

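Of 10 measures compared across the 4 tumors, 2 had a tumor farther from the rest than the 95% limit of Dixon's test for 4 values, which chance passes in about 1 of 20 groups. These measures were computed from the calls that chose the regions, so the limit only flags values and is no evidence of a difference. The longest region kept by a tumor measured 88573 bp in tumor 2, against 3412 bp in tumor 1, 3114 bp in tumor 3 and 3083 bp in tumor 4. The share of kept regions in which the tumor covered less than each thymus sample was 41.0% in tumor 4, against 22.8%, 23.0% and 24.1% in tumors 1, 2 and 3. Over all thymus regions that tumor 4 shared, this share was 44.8%.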

How the results depend on the processing

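Of the values recomputed, 65 moved by less than a set limit, 49 moved further and 10 changed sign. The limit was 1.5 times for counts and the SD over the 3 thymus samples for log2 ratios. For the shares in clusters and on chromosomes 1 to 25 it was a 95% binomial interval over regions. That interval treats regions as independent, which clustered regions are not. These tallies thus mix unlike limits and only sort the values. Calls that needed peaks over 50% of a region gave 67, 62, 248 and 14 regions kept by tumors 1, 2, 3 and 4, of 391, and bins of 1 kb gave 74, 63, 212 and 15, of 364, so that tumor 3 kept most of them under both. Leaving out peaks narrower than the narrowest of tumor 1 gave 370 regions, 122, 116, 114 and 18 in tumors 1, 2, 3 and 4. The median log2 ratio was then −0.51 in tumor 3, and 23.2% of regions lay in clusters. The 19809 widest peaks of each list gave 327 regions, 114, 82, 88 and 43 in tumors 1, 2, 3 and 4. The ratio of tumor 4 was then −1.32. Under these last settings tumor 1 kept the most regions, so the order of the tumors depended on the setting. With the tumor peak on shared thymus bases there were 281 regions, 85, 82, 99 and 15 in tumors 1, 2, 3 and 4. Against the median thymus length the ratio turned to 0.023 in tumor 2 and 0.00016 in tumor 3, and against the longest it was −0.84 over all regions, −0.84, −0.82 and −1.47 in tumors 1, 3 and 4. Gaps of 25 and 100 kb put 22.9% and 32.5% of regions in clusters. Added after seeing the data, the lists without the batch word alone (4 tumors and thymus 3) gave 2329 regions, 661, 707, 754 and 207 in tumors 1, 2, 3 and 4. Leaving out each sample in turn gave 569 to 1190 regions, 176 to 477 in tumor 1, 187 to 342 in tumor 2, 210 to 502 in tumor 3 and 40 to 88 in tumor 4. Leaving out each thymus sample gave ratios of −0.069 to 0.046 over all regions, −0.13 to 0.052 in tumor 1, 0.0078 to 0.90 in tumor 2, −0.11 to 0.056 in tumor 3 and −0.80 to −0.69 in tumor 4, so the sign of the ratio in tumors 1, 2 and 3 was not stable. The causes were not tested. No paired analysis was possible because no result comes from a test and the replicate numbers shared by tumors and thymus samples belong to different fish.

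A peak list does not show signal under the calling threshold, so a region counted as lost in a tumor is a region with no listed peak there. The lists differ in length and narrowest peak, and no peak as short as the 72 bp of tumor 4 is in the lists of tumors 1, 2 and 3. The depth behind each list was not examined.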
